A study of Mus musculus with 12 samples.

Results

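Transcripts of 34 genes that mark skeletal muscle fibres were followed through 12 RNA-seq libraries of 4T1 mammary tumours in mice. The genes were taken by symbol from the deposited table of 41009 genes, in which all 34 were listed, with no threshold on measured values. The list was chosen with earlier results of these data known, so no test was run over it as a whole. They spanned the parts of the contractile unit and its supply: 7 genes of the thin filament, 7 of the thick filament, 7 of the Z disc and intermediate filaments, 7 of calcium release and uptake, and 6 of energy and oxygen supply. Their levels differed widely between libraries of 1 group in VHH-OD-Fc and Ctrl. Of the 34, 29 were higher in every VHH-OD-PD-1-Fc library than in any VHH-PD-1-Fc library. Among the 26 members that entered the test these were 23, against 13.8% of genes tested. The members were high and low in much the same libraries, so they do not count as separate results. None passed the main test over the 12 libraries. Under other settings some did, and these are given with each comparison. The most was 21, when the 4 groups were tested together without VHH-OD-Fc replicate 1.

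A skeletal muscle fibre is a long cell packed with sarcomeres, in which myosin thick filaments pull on actin thin filaments anchored at Z discs. Calcium released from the sarcoplasmic reticulum starts the pull by binding troponin on the thin filament, and a calcium pump ends it. Fast and slow fibres use different myosin, troponin and enzyme genes, so the mixture of these transcripts shows the kind of fibre. Mammary tumour cells are of epithelial origin, and the mammary fat pad of the mouse lies under the skin close to the muscle layers of the body wall.

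Female BALB/c mice aged 4 to 5 weeks carried the tumours in a mammary fat pad, after an injection of the mouse breast cancer line 4T1 marked with mCherry. From day 7, after randomisation, they received intraperitoneal VHH-OD-PD-1-Fc at 4.3 mg/kg, VHH-PD-1-Fc at 2.6 mg/kg, VHH-OD-Fc at 3.5 mg/kg, or Ctrl-Fc at 5 mg/kg as the Ctrl group, and each group has 3 libraries. The VHH in these proteins is a binding domain taken from camelid antibodies and the Fc an antibody's constant region. PD-1 is a receptor that restrains T cells, and OD is an abbreviation the labels leave unexplained. All 4 groups share the tumour line, the host strain and an Fc part, and the doses by weight differ. Whether libraries of 1 group are from different animals is not stated in the labels, so a p-value here measures the spread between libraries, which may be technical.

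Values are FPKM, fragments scaled by transcript length and library size, as deposited. Multiplied by exon length, 93.6% to 94.9% of the values up to 5 reads lay within 0.05 of a whole number of reads, which put the depth at 43.6 to 60.9 M reads per library (M stands for 1000000). A member's FPKM is therefore also given as an estimated number of reads, and 3 reads was taken as the least that shows a transcript. A number of reads speaks of counting error only. Markers of the tumour epithelium were present throughout: the summed FPKM of 12 such genes, Krt18 and Krt8 the highest, was 1310 to 4043 in the 12 libraries. In bulk RNA, fewer cells of a type and less RNA per cell cannot be told apart.

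Upstream windows of 25 members were found among RefSeq promoters (build GRCm38.p6, 250 bases before to 50 after the gene's start). The windows of Acta1, Myh4 and Ckm are shown because these genes were high and low in the same libraries, and that of Eno3 because it was high in every library. Each is written 5′ to 3′ on the strand of its gene, with the letters CANNTG in capitals, the E box that MyoD-family factors bind.
Acta1, chr8:123894726-123895025, minus strand: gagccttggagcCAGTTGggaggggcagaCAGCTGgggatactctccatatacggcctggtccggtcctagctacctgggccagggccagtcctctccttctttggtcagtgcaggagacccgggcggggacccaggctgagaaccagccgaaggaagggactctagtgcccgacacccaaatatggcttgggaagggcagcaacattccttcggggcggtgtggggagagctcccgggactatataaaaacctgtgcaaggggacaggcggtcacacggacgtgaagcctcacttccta
Myh4, chr11:67237562-67237861, plus strand: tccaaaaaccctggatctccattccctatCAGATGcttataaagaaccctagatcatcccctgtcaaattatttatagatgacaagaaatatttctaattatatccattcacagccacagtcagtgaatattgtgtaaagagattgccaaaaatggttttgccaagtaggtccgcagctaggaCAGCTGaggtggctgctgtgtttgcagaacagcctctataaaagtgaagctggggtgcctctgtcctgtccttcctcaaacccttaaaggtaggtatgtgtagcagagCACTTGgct
Ckm, chr7:19410844-19411143, plus strand: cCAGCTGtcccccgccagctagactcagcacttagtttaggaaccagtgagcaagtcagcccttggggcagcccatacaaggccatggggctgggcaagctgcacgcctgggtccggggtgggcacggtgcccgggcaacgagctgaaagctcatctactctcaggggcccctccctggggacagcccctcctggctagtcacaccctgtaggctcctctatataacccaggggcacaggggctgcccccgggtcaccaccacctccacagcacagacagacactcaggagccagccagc
Eno3, chr11:70656926-70657225, plus strand: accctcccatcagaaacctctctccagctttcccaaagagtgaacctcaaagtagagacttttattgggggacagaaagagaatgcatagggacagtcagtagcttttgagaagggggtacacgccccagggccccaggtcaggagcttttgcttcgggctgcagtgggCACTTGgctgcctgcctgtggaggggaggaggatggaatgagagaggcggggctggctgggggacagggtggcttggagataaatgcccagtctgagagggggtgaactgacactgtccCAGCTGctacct
The letters CAGCTG, an E box that reads the same on both strands, stood in 16 of the 31 windows of the 25 members (51.6%), against 16.3% of all 32851 windows searched. CANNTG, which takes in CAGCTG, was in 25 of the 31 windows (80.6%), against 72.3% of all windows. TATAAA was in 6 of 31 (19.4%), against 13.6% of all. Counting both strands, the MEF2 motif was in 19.4% of member windows and in 3.19% of all, and the CArG box, the motif of serum response factor, was in 12.9% and 1.63%. Several windows stood for 5 members, some of them overlapping, so a site can be counted more than 1 time. By gene, CAGCTG was in 14 of the 25 members, the MEF2 motif in 6 and the CArG box in 3. The windows of Acta1, Myh4, Ckm and Eno3 each held CAGCTG, so this motif did not part the fourth gene from the others. These are letter matches and not measured binding.

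The thin filament gene Acta1, the actin of adult skeletal muscle, had the widest range of the 34. It had 117, 124 and 123 FPKM in VHH-OD-PD-1-Fc replicates 1 to 3, 19.0, 0.209 and 0.302 in VHH-PD-1-Fc, 1.45, 1437 and 144 in VHH-OD-Fc, and 0.322, 148 and 9.97 in Ctrl. One library of VHH-OD-Fc and one of Ctrl thus held about the same level as all the VHH-OD-PD-1-Fc libraries, while another library of each of those groups was near the bottom. Group means were 121 ± 3.38 FPKM in VHH-OD-PD-1-Fc, 6.50 ± 10.8 in VHH-PD-1-Fc, 528 ± 791 in VHH-OD-Fc and 52.7 ± 82.4 in Ctrl (SD, n = 3 each). In reads, the range ran between 14 in VHH-PD-1-Fc replicate 2 and 114050 in VHH-OD-Fc replicate 2.

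Of 34 members, 33 had their highest value in VHH-OD-Fc replicate 2. The exception was Tnnc2. In that library the member's value exceeded its second highest by 1.27 to 10.9 times, with a median of 4.70. The next 5 libraries were also shared: for 29 of the 34 genes the top 6 libraries were the 3 of VHH-OD-PD-1-Fc, VHH-OD-Fc replicates 2 and 3, and Ctrl replicate 2. Between 20 and 33 members exceeded 1 FPKM in those 6 libraries, and between 5 and 12 in the other 6. At most 3 estimated reads in at least 1 library were found for 17 of the 34.

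**Figure D1:**
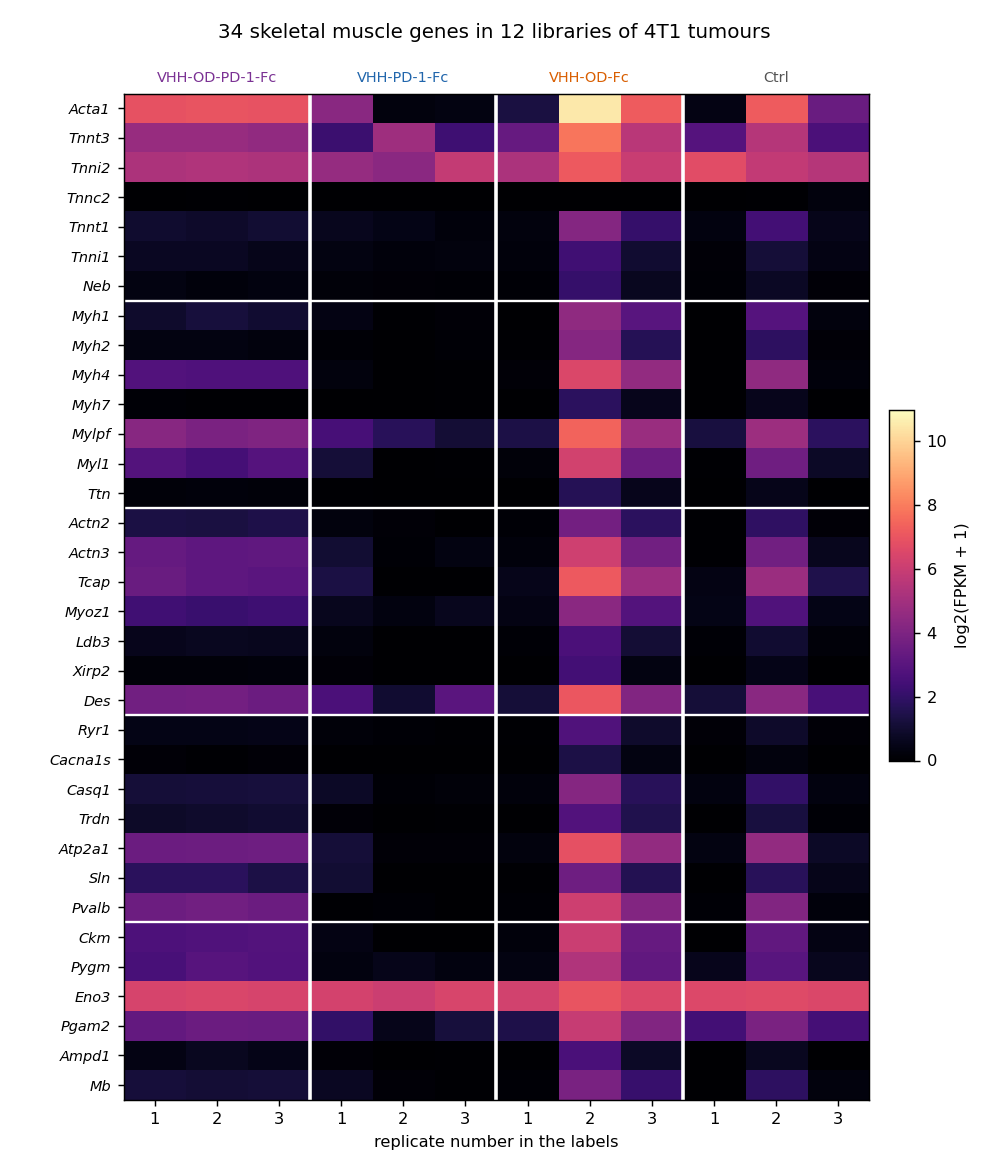
Level of each of the 34 skeletal muscle genes (rows, in blocks for thin filament, thick filament, Z disc and intermediate filament, calcium handling, and energy and oxygen supply) in each library (columns, by group and replicate), as log2(FPKM + 1). The column of VHH-OD-Fc replicate 2 is the brightest for 33 genes, and the rows of Tnni2 and Eno3 are bright in every library.

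Summed over the 34 genes, the level was 379, 389 and 376 FPKM in VHH-OD-PD-1-Fc, 149, 120 and 157 in VHH-PD-1-Fc, 129, 3133 and 569 in VHH-OD-Fc, and 215, 571 and 169 in Ctrl. Tnni2 and Eno3 made up most of the lower sums. Without them, the sums were 260, 262 and 258 FPKM in VHH-OD-PD-1-Fc, 46.7, 34.1 and 16.1 in VHH-PD-1-Fc, 18.4, 2865 and 416 in VHH-OD-Fc, and 16.3, 417 and 35.5 in Ctrl. The highest library of a group exceeded its lowest by 1.02 times in VHH-OD-PD-1-Fc, 2.91 times in VHH-PD-1-Fc, 156 times in VHH-OD-Fc and 25.6 times in Ctrl. In VHH-OD-Fc replicate 2 the 34 genes took 0.907% of the summed FPKM of all genes.

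**Figure D2:**
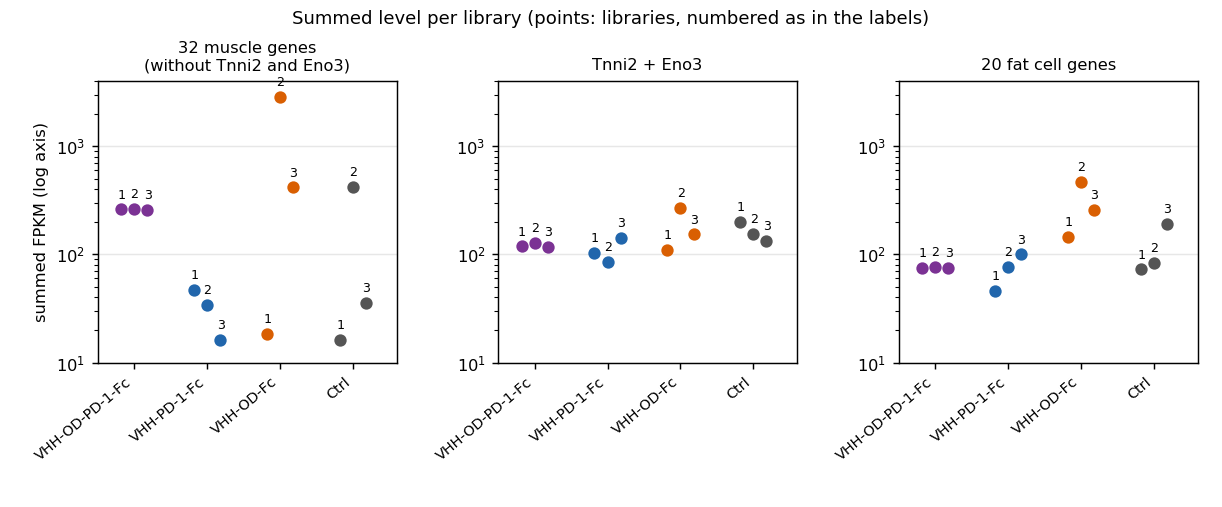
Summed FPKM per library (log axis) of 32 muscle genes, of Tnni2 and Eno3, and of 20 fat cell genes, by group, where each point is 1 library with its replicate number. The 32 muscle genes span 16.1 to 2865 FPKM with the 3 VHH-OD-PD-1-Fc points side by side at 258 to 262. The sum of Tnni2 and Eno3 spans a narrower range, in which Tnni2 alone runs between 19.3 and 144 FPKM and Eno3 between 66.5 and 125.

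The fast-fibre troponins are the switch on the thin filament. Tnnt3, fast troponin T, had 25.1, 25.1 and 22.5 FPKM in VHH-OD-PD-1-Fc, 3.65, 28.0 and 3.87 in VHH-PD-1-Fc, 9.31, 227 and 48.2 in VHH-OD-Fc, and 6.37, 44.1 and 5.19 in Ctrl. Its 28.0 FPKM in VHH-PD-1-Fc replicate 2, about 1935 reads, stood where Acta1 had 14 reads and Ckm none. Tnni2, fast troponin I, was high in all libraries: 37.0, 40.1 and 36.9 FPKM in VHH-OD-PD-1-Fc, 24.3, 19.3 and 57.3 in VHH-PD-1-Fc, 36.5, 144 and 62.1 in VHH-OD-Fc, and 105, 55.5 and 43.6 in Ctrl. Ctrl replicate 1, with 25 reads of Acta1, thus held the second highest Tnni2 level, at about 7938 reads. Syt8, the neighbour of Tnni2 on the same strand in GENCODE M21, was at 63.8 to 178 FPKM, with its highest values in VHH-PD-1-Fc replicate 3 and Ctrl replicate 1. Its part in the Tnni2 values was not tested.

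Tnnc2, fast troponin C, was the member whose values departed from its partners altogether. It was listed at 0 in 8 libraries and reached no more than 0.223 FPKM, or 9 reads, in Ctrl replicate 3, while its partners Tnnt3 and Tnni2 were at 227 and 144 FPKM in VHH-OD-Fc replicate 2. Of the 800 exon bases of Tnnc2 in GENCODE M21, 592 (74.0%) are shared with Ube2c, a cell cycle gene on the other strand that was at 31.4 to 58.4 FPKM. Which gene the authors' counting gave such reads to is not given in the sources used here, so the Tnnc2 value is uncertain.

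Slow-fibre troponins were lower by far. Tnnt1, slow troponin T, had 0.981, 0.845 and 1.07 FPKM in VHH-OD-PD-1-Fc, 0.536, 0.364 and 0.184 in VHH-PD-1-Fc, 0.212, 17.1 and 3.21 in VHH-OD-Fc, and 0.252, 4.45 and 0.469 in Ctrl. Tnni1, slow troponin I, had 0.618, 0.628 and 0.450 FPKM in VHH-OD-PD-1-Fc, 0.304, 0.172 and 0.231 in VHH-PD-1-Fc, 0.177, 4.04 and 1.01 in VHH-OD-Fc, and 0.110, 1.22 and 0.314 in Ctrl. As a share of Tnnt1 plus Tnnt3, Tnnt1 made up 3.25% to 4.54% in the VHH-OD-PD-1-Fc libraries, 6.24% and 7.01% in VHH-OD-Fc replicates 3 and 2, and 9.17% in Ctrl replicate 2. Neb, the giant ruler protein of the thin filament, ran between 0.0701 and 3.25 FPKM.

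Myosin heavy chains are the motors of the thick filament, and each fibre type uses its own. The genes Myh2, Myh1 and Myh4 lie next to each other on chromosome 11, with windows that start at 67170777, 67199852 and 67237562 in GRCm38. Myh4, of the fastest fibres, had 6.06, 5.56 and 5.58 FPKM in VHH-OD-PD-1-Fc, 0.211, 0.0229 and 0.0450 in VHH-PD-1-Fc, 0.106, 90.4 and 22.9 in VHH-OD-Fc, and 0, 21.8 and 0.191 in Ctrl. Myh1, of the next fastest, had 0.918, 1.32 and 1.002 FPKM in VHH-OD-PD-1-Fc, 0.310, 0.0505 and 0.0975 in VHH-PD-1-Fc, 0.0268, 21.8 and 6.90 in VHH-OD-Fc, and 0, 6.43 and 0.228 in Ctrl. Myh4 was above Myh1 in the 6 libraries with most muscle RNA and in VHH-OD-Fc replicate 1, and below it in the 3 of VHH-PD-1-Fc and in Ctrl replicate 3. In these last 4, Myh4 rested on 6 to 58 reads.

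Myh2, of fast oxidative fibres, had 0.280, 0.306 and 0.211 FPKM in VHH-OD-PD-1-Fc, 0.0675, 0.0225 and 0.0651 in VHH-PD-1-Fc, 0.0417, 17.6 and 2.17 in VHH-OD-Fc, and 0, 2.65 and 0.120 in Ctrl. Myh7, the myosin of slow fibres, had 0.0909, 0.0325 and 0.0459 FPKM in VHH-OD-PD-1-Fc and 0.0279, 0.00532 and 0.0359 in VHH-PD-1-Fc. VHH-OD-Fc had 0, 2.60 and 0.511 FPKM of Myh7, and Ctrl had 0.00230, 0.476 and 0. Among the 4 chains, Myh4 took 77.1% to 82.5% in the VHH-OD-PD-1-Fc libraries, 68.3% and 70.5% in VHH-OD-Fc replicates 2 and 3, and 69.5% in Ctrl replicate 2. Myh7 took at most 1.96% in any of these. Myosin transcripts in these libraries were thus mostly of the fast chains. Ctrl replicate 1 had 1 read of Myh7 and none of the other chains.

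**Figure D3:**
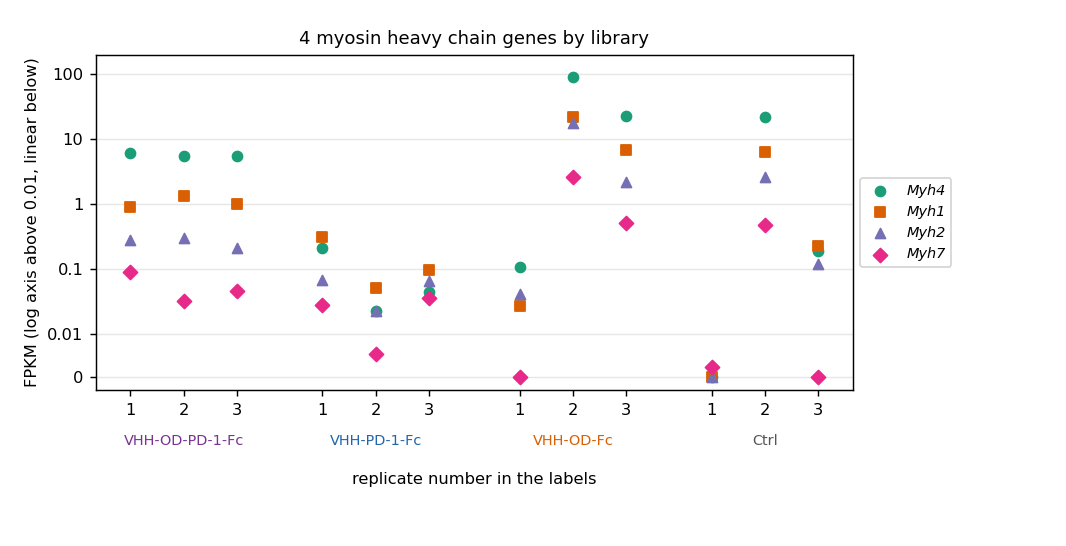
FPKM of Myh4, Myh1, Myh2 and Myh7 in each library, by group and replicate (logarithmic axis, linear close to 0). Myh4 stands highest and Myh7 lowest in the 3 VHH-OD-PD-1-Fc libraries, in VHH-OD-Fc replicates 2 and 3 and in Ctrl replicate 2, and all 4 chains are at or under 0.310 FPKM in the other 6.

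Of the other thick filament genes, Mylpf, a regulatory light chain of fast myosin, had the highest mean. It had 18.4, 14.1 and 15.9 FPKM in VHH-OD-PD-1-Fc, 4.72, 2.31 and 1.13 in VHH-PD-1-Fc, 1.64, 168 and 25.9 in VHH-OD-Fc, and 1.40, 27.6 and 2.54 in Ctrl. No library was at 0, and the lowest held about 62 reads. Myl1, an essential light chain of fast myosin, ran between 0.0221 and 74.8 FPKM. Ttn, titin, the spring of the sarcomere, ran between 0.00942 and 2.12 FPKM, where the higher value is about 12822 reads over a very long transcript.

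At the Z disc, Tcap, which caps titin there, had 9.87, 7.81 and 7.22 FPKM in VHH-OD-PD-1-Fc, 1.52, 0 and 0 in VHH-PD-1-Fc, 0.449, 142 and 26.9 in VHH-OD-Fc, and 0.334, 27.1 and 1.78 in Ctrl. Actn3, the alpha-actinin of fast fibres, ran between 0.0546 and 70.1 FPKM, and Actn2, its partner in all fibres and the heart, between 0 and 12.2 FPKM. Myoz1, a calcineurin-binding Z-disc protein of fast fibres, ran between 0.267 and 19.8 FPKM, and Xirp2, an actin-binding repeat protein, between 0 and 4.34 FPKM. Ldb3, a PDZ and LIM protein of the Z disc that the heart also makes, had 0.476, 0.587 and 0.538 FPKM in VHH-OD-PD-1-Fc, 0.208, 0 and 0.0190 in VHH-PD-1-Fc, 0.0836, 5.25 and 1.14 in VHH-OD-Fc, and 0.0844, 1.04 and 0.133 in Ctrl.

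Des, the intermediate filament of all muscle types, smooth muscle included, had a floor that most members lacked. It had 11.9, 12.1 and 10.5 FPKM in VHH-OD-PD-1-Fc, 5.28, 1.01 and 7.05 in VHH-PD-1-Fc, 1.18, 133 and 15.9 in VHH-OD-Fc, and 1.21, 18.8 and 4.80 in Ctrl. Its value of 7.05 FPKM in VHH-PD-1-Fc replicate 3, about 1368 reads, stood in a library with 24 reads of Acta1. The summed FPKM of 12 smooth muscle genes, Acta2 and Smtn the highest, was 98.2 to 103 in VHH-OD-PD-1-Fc, 92.7 to 128 in VHH-PD-1-Fc, 140 to 170 in VHH-OD-Fc, and 127 to 162 in Ctrl. Their part in the Des values was not tested.

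In calcium handling, Atp2a1, the pump that returns calcium to the store in fast fibres, had 10.3, 10.6 and 10.9 FPKM in VHH-OD-PD-1-Fc, 1.20, 0.119 and 0.106 in VHH-PD-1-Fc, 0.226, 116 and 22.8 in VHH-OD-Fc, and 0.279, 23.0 and 0.754 in Ctrl. Pvalb, a calcium buffer of fast fibres, followed the same libraries but with a sharper floor. It had 10.6, 11.8 and 10.4 FPKM in VHH-OD-PD-1-Fc, against 0.0420, 0.0661 and 0.0186 in VHH-PD-1-Fc, which are 1 to 3 reads each. VHH-OD-Fc had 0.0817, 67.9 and 16.7 FPKM of it, and Ctrl had 0.0761, 16.0 and 0.191. In GENCODE M21, 21.9% of the exon bases of Atp2a1 and 27.6% of those of Mb, described further on, are shared with other genes, which makes their levels less certain. Acta1 and Pvalb parted in VHH-PD-1-Fc replicate 1, where Acta1 had about 1332 reads and Pvalb 2.

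The remaining genes of this set are the voltage sensor, the release channel, the store proteins and the pump inhibitor. Ryr1, the release channel of the store, ran between 0.0506 and 5.93 FPKM, and Cacna1s, the voltage sensor of the fibre membrane, between 0 and 1.62 FPKM. Casq1, which binds calcium inside the store, ran between 0.0705 and 17.8 FPKM, and Trdn, which ties it to the release channel, between 0 and 6.12 FPKM. Sln, a small inhibitor of the pump, ran between 0 and 10.9 FPKM. All 5 peaked in VHH-OD-Fc replicate 2.

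In energy supply, Eno3, the enolase of muscle, was the member that varied least. It had 81.2, 87.1 and 81.2 FPKM in VHH-OD-PD-1-Fc, 78.2, 66.5 and 83.7 in VHH-PD-1-Fc, 74.3, 125 and 90.9 in VHH-OD-Fc, and 93.9, 98.6 and 90.2 in Ctrl. It was thus at 66.5 FPKM or more also in the 3 libraries in which Ckm had 0 to 3 reads. Pfn1, a gene beside Eno3 whose RefSeq span overlaps it, was at 264 to 573 FPKM in the 12 libraries, and its part in the Eno3 values was not tested. In GENCODE M21, 0 of the 1739 exon bases of Eno3 are shared with another gene. Ckm, the creatine kinase of muscle, ran between 0 and 64.3 FPKM, with 5.37, 5.81 and 6.22 in VHH-OD-PD-1-Fc, 0.323, 0 and 0.0199 in VHH-PD-1-Fc, 0.175, 64.3 and 9.48 in VHH-OD-Fc, and 0.00680, 8.44 and 0.314 in Ctrl.

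Pygm, the glycogen phosphorylase of muscle, ran between 0.234 and 40.1 FPKM, and Pgam2, the muscle form of phosphoglycerate mutase, between 0.464 and 61.5 FPKM. Ampd1, the AMP deaminase of muscle, ran between 0 and 5.06 FPKM. Mb, myoglobin, which holds oxygen in slow and oxidative fibres and the heart, ran between 0.0266 and 14.0 FPKM. These 4 peaked in VHH-OD-Fc replicate 2 with the rest.

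Group differences were tested with limma on log2(FPKM + 1) over 14306 genes that had at least 1 FPKM in at least 3 of the 12 libraries, with calls at an adjusted p (Benjamini-Hochberg) below 0.05. On this scale the fold change of a low gene is understated. Of the 34 members, 26 entered the test, and Tnnc2, Neb, Myh7, Ttn, Xirp2, Ryr1, Cacna1s and Ampd1 were too low. The spread between libraries of a group, as the median SD of log2 values in the fit, was 1.33 for the 26 members and 0.185 for all genes tested. For 25 of the 26 it was above the 95th percentile of all genes, Eno3 being the exception. By group, the median SD of the members was 0.0895 in VHH-OD-PD-1-Fc, 0.283 in VHH-PD-1-Fc, 2.25 in VHH-OD-Fc and 1.36 in Ctrl. Differences within groups held a median of 62.8% of each member's variance, against 36.5% over all genes.

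No member was called for VHH-OD-PD-1-Fc against Ctrl, where 42.2% of all genes tested were called, 15.1% higher and 27.1% lower. The median log2 fold change was 0.93 for the members and -0.14 for all genes, and it was positive for 21 members and negative for Tnni2, Eno3, Tnnt1, Myh1 and Myh2. Acta1 had the largest value, 3.24 ± 2.16 (SE), with a limma adjusted p of 0.247, and the smallest adjusted p was that of Pvalb, 0.223, at 2.09 ± 1.32. Higher levels without overlap were found for none of the 34, against 23.0% of genes tested, and lower levels without overlap for 2, Tnni2 and Eno3, against 41.4%. Eno3 was called lower after TPM rescaling, among 43.3% of genes, and with only the 2 groups in the fit, among 33.8%, and Pvalb was called higher with library quality weights, among 25.7%. The members' median was 1.86 without Ctrl replicate 2 and 0.28 without Ctrl replicate 1. Of all calls, 2158 of 6036 were higher as deposited, 1415 of 7607 after rescaling to TPM and 2670 of 5243 after quantile normalization.

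For VHH-PD-1-Fc against Ctrl, 46.9% of genes tested were called, 14.6% higher and 32.3% lower, and again no member. All 26 members had a lower mean in VHH-PD-1-Fc, with a median log2 fold change of -0.78 against -0.19 over all genes. The smallest limma adjusted p was 0.104, for Tnni2, at -1.05 ± 0.50 (SE). Eno3, Pgam2, Pvalb and Pygm were lower in every VHH-PD-1-Fc library than in any Ctrl library, 4 of 34, against 33.7% of genes tested. Without Ctrl replicate 2 the members' median was -0.0022. Under 6 other settings 1 or 2 members passed the test, all lower in VHH-PD-1-Fc and all among Tnni2, Eno3 and Pgam2, where the share of all genes called lower was 47.5% (TPM), 18.1% (quantile normalization), 33.6% (without VHH-PD-1-Fc replicate 3), 30.4% and 31.1% (without VHH-OD-Fc replicate 1 or 2) and 18.1% (only these 2 groups in the fit). The balance of all calls depended on the scale: 2092 of 6707 were higher as deposited, 1346 of 8146 after rescaling to TPM and 2815 of 5408 after quantile normalization.

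VHH-OD-Fc against Ctrl gave no called gene (0.00% of genes tested), and 449 genes (3.14%), none of them a member, had an unadjusted limma p under 0.05. All 26 members had a higher mean in VHH-OD-Fc, with a median log2 fold change of 1.38 against -0.02 over all genes. The highest value was 2.63 ± 2.16 (SE), for Acta1, with a limma adjusted p of 1. No member was free of overlap in either direction, against 3.50% of genes tested for higher and 6.70% for lower. The members' median was 0.41 without VHH-OD-Fc replicate 2, and 2.54 when replicate 1 was left out instead.

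VHH-OD-PD-1-Fc and VHH-PD-1-Fc overlapped in few members. For 29 of the 34 members every VHH-OD-PD-1-Fc library was above every VHH-PD-1-Fc library, against 13.8% of genes tested, and 23 of these 29 were among the 26 tested. None was lower without overlap, against 7.25% of genes. All 26 tested members had a positive log2 fold change, with a median of 1.48 against 0.04 over all genes. Acta1 stood at 5.28 ± 2.16 (SE), Pvalb at 3.51 ± 1.32, Atp2a1 at 3.05 ± 1.43, Tcap at 2.76 ± 1.44 and Actn3 at 2.73 ± 1.25. None was called over the 12 libraries, in a comparison where 0.839% of genes were, 0.538% higher and 0.301% lower. The smallest limma adjusted p was 0.231, for Pvalb, and 5 members, Acta1, Pvalb, Ckm, Pygm and Pgam2, had an unadjusted p under 0.05, against 15.5% of genes. Of the 120 genes called, 77 were higher as deposited, against 38 of 86 after quantile normalization. The SE comes from a spread shared with VHH-OD-Fc and Ctrl, in which the members' median SD was 2.25 and 1.36.

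With only these 2 groups in the fit, an alternative added after seeing the data, 46 genes were called (0.322%), of which 39 were higher in VHH-OD-PD-1-Fc (0.273%). Among them were 8 members: Pvalb, Myh4, Ckm, Pygm, Myoz1, Atp2a1, Actn3 and Actn2. Their limma adjusted p ran between 0.000143, for Pvalb, and 0.0201, for Actn2. Myh4 stood at 2.63 ± 0.12 (SE) and Pvalb at 3.51 ± 0.11 in this fit. Acta1 was not called there (limma adjusted p = 0.132). With VHH-OD-PD-1-Fc averaged and counted as 1 sample among the 10 that then remain, the smallest adjusted p of a member was 1.

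For VHH-OD-PD-1-Fc against VHH-OD-Fc, 39.9% of genes tested were called, 15.4% higher and 24.5% lower, and no member was. The median log2 fold change was -0.52 for the members and -0.11 for all genes, and 24 of 26 were negative, Acta1 and Pvalb being positive. The smallest limma adjusted p was 0.133, for Myh2, at -1.64 ± 0.82 (SE). No member was free of overlap, against 25.3% of genes for higher and 40.4% for lower. The direction depended on single libraries: the members' median was 0.64 without VHH-OD-Fc replicate 2 and -1.84 when replicate 1 was left out instead, and it was 0.09 with library quality weights. Of all calls, 2209 of 5712 were higher as deposited, 1369 of 6985 after rescaling to TPM and 2609 of 5076 after quantile normalization. Without VHH-OD-Fc replicate 1, 6 members were called lower, among 18.7% of genes tested: Myh1, Myh2, Tnnt1, Mb, Ldb3 and Trdn. After TPM rescaling Eno3 was called lower, among 39.3% of genes.

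A moderated F test over the 4 groups called 49.7% of genes tested and no member, with a smallest limma adjusted p of 0.104. Without VHH-OD-Fc replicate 1 it called 21 of the 26 members, among 44.5% of genes tested. It called 1 member after TPM rescaling, among 60.0% of genes, 1 after quantile normalization, among 42.8%, and 1 without Ctrl replicate 2, among 46.2%.

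**Figure D4:**
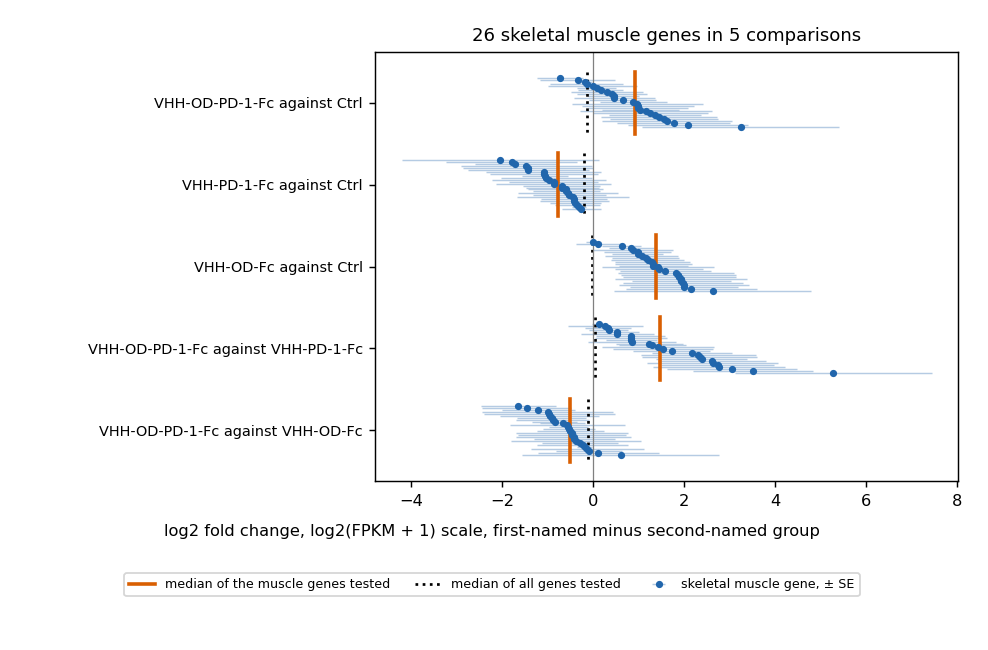
Log2 fold change of the 26 tested muscle genes, with SE, in 5 comparisons, on the log2(FPKM + 1) scale and as first-named minus second-named group, with the median of the members (solid bar) and of all 14306 genes tested (dotted bar). The members' median is positive in 3 comparisons and negative in VHH-PD-1-Fc against Ctrl and VHH-OD-PD-1-Fc against VHH-OD-Fc, with an SE that reaches 2.16 for Acta1.

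The 26 tested members were high and low in much the same libraries. The Pearson r of a member with the mean log2 value of the others was 0.874 to 0.995 for 24 of them, 0.759 for Eno3 and 0.519 for Tnni2. These are descriptions over 12 libraries that share the pull of VHH-OD-Fc replicate 2. The 10 other genes whose profile was most like the members' mean were Mylk2, Apobec2, Eef1a2, Myot, Cox6a2, Mybpc2, Mybpc1, Myl2, Cox8b and Rpl3l, with r between 0.973 and 0.992. Among them, Mylk2 is the myosin light chain kinase of skeletal muscle, Myot is a Z-disc protein, Mybpc1 and Mybpc2 are myosin-binding proteins, and Cox6a2 and Cox8b are muscle forms of respiratory chain subunits. All 10 peaked in VHH-OD-Fc replicate 2, and with a pseudocount of 0.1 the list kept 6 of them.

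Ctrl replicate 2 and VHH-OD-Fc replicate 3, from separate groups, held almost the same muscle profile. Over 33 members with at least 0.2 FPKM in Ctrl replicate 2, the ratio of VHH-OD-Fc replicate 3 to Ctrl replicate 2 was 0.721 to 1.36, with a median of 1.03. By Pearson r of log2 values the likeness held for all genes, at 0.991, against at most 0.986 for the other 53 pairs of libraries from separate groups. By median absolute log2 difference over all genes it was not the closest pair, at 0.106, against 0.1003 for VHH-OD-Fc replicate 3 and Ctrl replicate 3. Over the tested members this difference was 0.126, against 0.0778 for VHH-OD-Fc replicate 1 and Ctrl replicate 1, where muscle genes were low. By r, the 3 libraries of VHH-OD-PD-1-Fc lay as close to each other, at 0.990 to 0.991, against 0.953 to 0.984 for the other pairs within a group. Their estimated counts still differed by more than counting noise. In genes with a mean of at least 300 fragments, the median chi-square of a gene was 3.75 to 3.97 times that of counting noise alone. For the other pairs within a group it was 7.92 to 64.3 times. This cannot tell libraries of separate animals from repeated libraries of 1 animal, and the 3 were kept as 3 samples.

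VHH-OD-Fc replicate 2 was not a scaled copy of Ctrl replicate 2. The ratio of the 2 libraries had a median of 5.15 over the 33 members and reached 9.73 for Acta1, 7.61 for Ckm and 10.9 for Xirp2, while it was 3.39 for Myh1, 2.59 for Tnni2 and 1.27 for Eno3. The mean of VHH-OD-PD-1-Fc over Ctrl replicate 2 had a median of 0.512 and a wide range. It was low for Myh2 (0.1003), Myh7 (0.119), Myh1 (0.168) and Tnnt1 (0.217), and high for Sln (0.917), Eno3 (0.843), Pygm (0.835) and Acta1 (0.821). Of these 4 low genes, Myh2, Myh7 and Tnnt1 are of oxidative or slow fibres, while Mb and Tnni1, of the same fibres, were at 0.462 and 0.465.

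Across the 33 members this ratio was lower at greater exon length, with a Spearman rho of -0.491, and over all genes tested with at least 0.2 FPKM in Ctrl replicate 2 rho was -0.286. The 16 members with the shortest exons had a median ratio of 0.664 and the 17 longest 0.461. The part of length in the ratios was not tested. The ratio of VHH-OD-Fc replicate 3 to Ctrl replicate 2 had a rho of -0.0157 with length over the members. Over all genes tested with at least 0.2 FPKM in Ctrl replicate 2, it had a rho of 0.238.

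**Figure D5:**
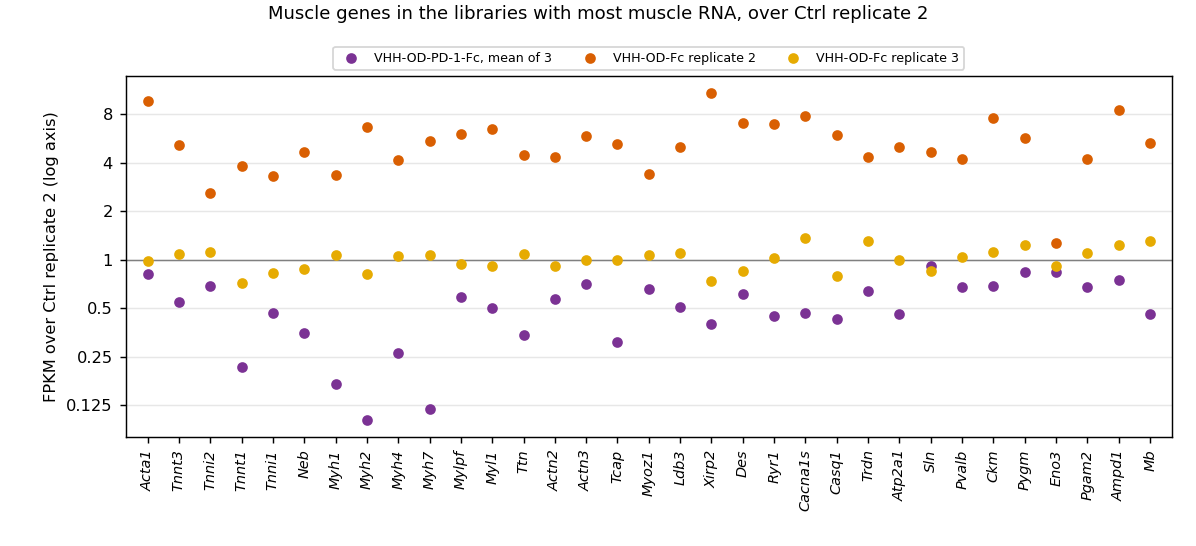
FPKM of 33 muscle genes (in the order of their roles) in VHH-OD-PD-1-Fc (mean of 3 libraries), VHH-OD-Fc replicate 2 and VHH-OD-Fc replicate 3, each over Ctrl replicate 2 (log axis). The points of VHH-OD-Fc replicate 3 lie along 1, those of its replicate 2 between 3.32 and 10.9 save Tnni2 and Eno3, and those of VHH-OD-PD-1-Fc under 1, lowest for Myh2 at 0.1003.

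Other muscle genes moved with the members. Of 30 further sarcomere genes, all 30 peaked in VHH-OD-Fc replicate 2, as did 17 of 20 genes of excitation and calcium handling and 21 of 22 of muscle metabolism. The sarcomere genes highest on average were the tropomyosins Tpm1 and Tpm2, which non-muscle cells also make. The summed FPKM of the 30 was 106 to 107 in VHH-OD-PD-1-Fc, 59.2 to 76.7 in VHH-PD-1-Fc, 80.9 to 516 in VHH-OD-Fc and 73.9 to 145 in Ctrl. Chrnb1, a subunit of the acetylcholine receptor of muscle, was at 58.7 to 82.7 FPKM in every library, including those with almost no Acta1.

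Some of these genes passed the limma test, all of them lower. In VHH-PD-1-Fc against Ctrl these were Flnc among 15 sarcomere genes tested, Jph2 and Asph among 10 of excitation, and Phka1 and Gys1 among 17 of metabolism, where 32.3% of all genes were called lower. For VHH-OD-PD-1-Fc over Ctrl, Asph passed alone, where 27.1% of all genes were called lower. In VHH-OD-PD-1-Fc against VHH-OD-Fc, Tpm1, then Jph2, Stac3, Cacnb1 and Asph, then Gpd1, Fbxo32 and Gys1 were called, against 24.5% of all genes. Jph2, which joins the calcium store to the fibre membrane, stood at -0.93 ± 0.20 (SE, limma adjusted p = 0.00431) in that comparison. Gpd1, a glycerol phosphate enzyme that fat cells also make, stood at -1.70 ± 0.43 (limma adjusted p = 0.00992).

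Genes of muscle precursors were low, though 8 of the 14 peaked in VHH-OD-Fc replicate 2. Their summed FPKM was 18.4 in that library and 0.185 to 4.85 in the others. Of 14 such genes, 9 stayed below 1 FPKM in every library, among them Pax7, of satellite cells, at no more than 0.0923, and Myod1, a master factor of myoblasts, at no more than 0.718. Myf6, the MyoD-family factor of mature fibres, reached 10.1 FPKM in VHH-OD-Fc replicate 2. Megf10, 1 of the 2 tested, was called lower in VHH-OD-PD-1-Fc than in Ctrl, at -0.82 ± 0.23 (SE, limma adjusted p = 0.0168). Megf10 was called lower there than in VHH-OD-Fc too, at -0.75 ± 0.23 (limma adjusted p = 0.0264). Of all genes, 27.1% and 24.5% were called lower in these comparisons. Of 10 heart genes, 5 stayed below 1 FPKM in every library, among them Nppa, Myl7 and Ryr2 at no more than 0.137, 0.135 and 0.0961. Myh6 peaked with the members at 1.87 FPKM in VHH-OD-Fc replicate 2. Nppb, a natriuretic peptide, reached 20.7 FPKM in VHH-OD-PD-1-Fc replicate 1 and was called higher in VHH-OD-PD-1-Fc than in VHH-OD-Fc, at 1.87 ± 0.65 (SE, limma adjusted p = 0.0417). Tnnt2 was at 11.2 to 61.7 FPKM and peaked in VHH-OD-Fc replicate 3.

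Fat cell genes moved partly with the members. Of 20 such genes, 16 peaked in VHH-OD-Fc replicate 2, and 9 of the 12 tested were called lower in VHH-OD-PD-1-Fc than in VHH-OD-Fc, against 24.5% of all genes. Their summed FPKM was 74.5 to 76.0 in VHH-OD-PD-1-Fc, 45.8 to 99.8 in VHH-PD-1-Fc, 144 to 465 in VHH-OD-Fc and 72.7 to 192 in Ctrl. Cfd, adipsin, was at 209 and 122 FPKM in VHH-OD-Fc replicates 2 and 3 but at 17.6 in Ctrl replicate 2, which had 571 FPKM of muscle genes against 569 in VHH-OD-Fc replicate 3. Fat and muscle transcripts were thus not in 1 fixed ratio. No defining fat gene was at 0 in all libraries. The part of fat tissue in the muscle values was not tested.

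Non-muscle counterparts of the members did not share their peak. Of 18 such genes, Actb and Actg1 the highest, 1 peaked in VHH-OD-Fc replicate 2, and their summed FPKM was 3230 to 3300 in VHH-OD-PD-1-Fc, 3052 to 3126 in VHH-PD-1-Fc, 2964 to 3302 in VHH-OD-Fc and 3175 to 3369 in Ctrl. Single genes did differ: limma called 2 of the 18 higher and 8 lower in VHH-PD-1-Fc against Ctrl (14.6% and 32.3% of all genes). For VHH-OD-PD-1-Fc it called 2 higher and 6 lower against Ctrl (15.1% and 27.1%), and 3 higher and 4 lower against VHH-OD-Fc (15.4% and 24.5%). None of 12 tumour epithelium genes peaked in VHH-OD-Fc replicate 2. Of 10 endothelial genes 7 did, with a summed FPKM of 43.1 to 45.7 in VHH-OD-PD-1-Fc, 39.5 to 54.0 in VHH-PD-1-Fc, 60.4 to 83.0 in VHH-OD-Fc and 49.5 to 74.9 in Ctrl. Of 12 peripheral nerve genes 6 did. Among the 9 endothelial genes tested, limma called 5 lower in VHH-PD-1-Fc against Ctrl (32.3% of all genes). For VHH-OD-PD-1-Fc it called 4 lower against Ctrl (27.1%) and 5 lower against VHH-OD-Fc (24.5%). The part of any of these cell types in the muscle values was not tested.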

How the data were processed

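Polyadenylated RNA of 4T1 tumours was sequenced in 12 libraries, as pairs of 150 bases. Per the submitters' processing notes, fastp 0.22.0 and HISAT2 2.2.1 were used with GRCh38, which is the human genome, although the symbols are of mouse. The program behind the FPKM values, its annotation and its strandedness were not named there. The deposited values are FPKM per gene, normalized by the authors for length and library size, in 1 table of 41009 symbols. The design text on record describes another tumour and drug than the labels, and the labels were followed. The members and gene lists were chosen with earlier results of these data known.

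Genes with at least 1 FPKM in at least 3 of 12 libraries (14306) were tested on log2(FPKM + 1) with limma 3.58.1 (R 4.3.3, trended variance, 8 residual and 3.03 prior degrees of freedom), in 1 fit of 4 groups with 5 contrasts and an F test, two-sided, Benjamini-Hochberg threshold 0.05. limma recovered known changes in simulated data, where they were set only in genes with a spread below the median. As 25 of the 26 tested members were above the 95th percentile of spread, the simulation does not cover genes like these. Reads were estimated from FPKM, GENCODE M21 exon lengths (88.56% of symbols matched, all 34 members) and a depth fitted to low values, which gave 376 of the members' 408 values within 0.1 of a whole read. These estimates describe depth; no count test was run on them. Genes named in full were the member highest on average in each role, the myosin heavy chains, the troponins, Des and Ldb3, and others the results turn on. Alternatives were pseudocount 0.1, no filter, a mean of at least 5 FPKM, TPM, quantile normalization, library quality weights, a replicate block, 1 sample for VHH-OD-PD-1-Fc, each library left out, and only the 2 groups compared.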

Additional observations from a re-analysis of the deposited data

How the results depend on the processing

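Counts of all genes called moved most in the comparisons with few calls. For VHH-OD-PD-1-Fc against VHH-PD-1-Fc, 120 as reported became 188 with no filter on low values, 73 after rescaling to TPM, 11 with library quality weights, 28 with a replicate block, 3 with VHH-OD-PD-1-Fc taken as 1 sample, 46 with only the 2 groups compared in the fit, and 6 to 549 when a library was left out. For VHH-OD-Fc against Ctrl the count was 2 with no filter, 4 with weights, and 0 to 1 when a library was left out. A mean of at least 5 FPKM, which tests fewer genes, gave 3741 genes for VHH-PD-1-Fc over Ctrl, 3293 for VHH-OD-PD-1-Fc over Ctrl, 3157 for it over VHH-OD-Fc and 3978 for the F test. Weights gave 9901 for VHH-OD-PD-1-Fc over Ctrl and 8716 over VHH-OD-Fc; counting VHH-OD-PD-1-Fc as 1 sample gave 1312, 1083 and, for the F test, 4214. Only the 2 groups in the fit gave 3821 for VHH-PD-1-Fc against Ctrl. Leaving out a library gave 4493 to 6880 genes for VHH-OD-PD-1-Fc against Ctrl, 4157 to 6528 against VHH-OD-Fc, 5347 to 6840 for VHH-PD-1-Fc against Ctrl and 5888 to 7660 for the F test.

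Muscle genes called, 0 as reported, were 2 after TPM (Tnni2 and Eno3) and 1 after quantile normalization (Eno3) for VHH-PD-1-Fc against Ctrl, 1 (Pgam2) with only the 2 groups, and 0 to 2 without a library. For VHH-OD-PD-1-Fc against Ctrl they were 1 after TPM (Eno3), 1 with weights (Pvalb) and 1 with only the 2 groups (Eno3); against VHH-OD-Fc 1 after TPM (Eno3) and 0 to 6 without a library; against VHH-PD-1-Fc 8 with only the 2 groups. The F test gave 1 after TPM, 1 after quantile normalization, and 0 to 21 without a library. Of 2615 fold changes of single members under an alternative, 26 were called and 72 changed sign. The cause of these moves was not tested. After TPM the median of all genes was -0.43 for VHH-PD-1-Fc over Ctrl, -0.37 for VHH-OD-PD-1-Fc over Ctrl and -0.34 for it over VHH-OD-Fc, compared with -0.19, -0.14 and -0.11 as deposited. Replicate numbers did not pair the libraries: r of same-numbered deviations was -0.154 to 0.184 over 18 pairs, and 3 of 12 libraries correlated best with their own number. At 3 reads or fewer, the level of a member in a library is known only within counting error.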
